A study of Macaca mulatta with 136 samples.

Results

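Bipolar cell marker genes were followed through 2 tissues and 4 locations of the rhesus macaque eye. The rule named 7 genes, VSX1, TRPM1, PRKCA, CABP5, PCP2, NYX and LHX4, by gene symbol. TRPM1 (ENSMMUG00000009430), PRKCA (ENSMMUG00000018378), CABP5 (ENSMMUG00000017942), PCP2 (ENSMMUG00000028904) and NYX (ENSMMUG00000005304) each had a single entry among the 19422 gene identifiers of the files. VSX1 and LHX4 were not analysed here, so 5 of the 7 markers are described below. RNA-seq was performed on 2 mm punches from postmortem eyes of 2 adult animals, RM03 and RM04, the left and right eye of each, with no treatment. Punches came from the fovea/macula (called fovea here), perimacula, nasal location and periphery, and each punch was split into its neural retina and its RPE/choroid, the retinal pigment epithelium together with the vascular and pigmented layer beneath it. The design held 32 libraries, with 4 eyes for every combination of tissue and location. Since the 4 eyes came from 2 animals, p-values measure the spread between these eyes and reach no further than these animals.

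Bipolar cells carry the visual signal from photoreceptors to amacrine and ganglion cells. In ON bipolar cells, glutamate released in the dark acts on the metabotropic receptor mGluR6, whose G protein keeps the cation channel TRPM1 closed, and light reopens the channel. Nyctalopin, the product of NYX, is a leucine-rich repeat protein that holds TRPM1 in place at the dendritic tips, and loss of either gene causes complete congenital stationary night blindness. PRKCA encodes protein kinase C alpha, the standard marker of rod bipolar cells. CABP5 encodes a calcium-binding protein of rod bipolar cells and of some cone bipolar types. PCP2 encodes a modulator of Go signalling found in rod bipolar and ON cone bipolar cells and in cerebellar Purkinje cells. Of these genes, TRPM1 was first known as melastatin, a gene of pigmented melanocytes, and PRKCA is active in many cell types.

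The summed libraries held 42448903 to 78574055 estimated counts. Levels are given as CPM, counts scaled to a common library total with TMM factors, which adjust each library's total for differences in composition. They are not divided by gene length, so levels are compared between libraries and not between genes. In retina the lowest estimated count of a marker in any library was 3801 for TRPM1, 939 for PRKCA, 10452 for CABP5 and 2912 for PCP2, but 43 for NYX. In RPE/choroid the lowest were 8055, 529, 30, 86 and 14 in the same order. The periphery libraries were sequenced on a flow cell of their own, so periphery and flow cell cannot be told apart, whereas the other 3 locations shared flow cells. In retina, levels from 2 lanes of a library were set against those from all its lanes. They differed by a median of 1.66% for TRPM1 and 6.74% for PCP2, and by as much as 41.1% for NYX. The 2 lanes are part of the total, and periphery libraries had only 2, so disagreement between single lanes was not measured. The tissue labels were checked against marker lists. The 9 rod genes summed to between 4013 and 28042 CPM in retina and between 50.1 and 924 CPM in RPE/choroid. The 5 RPE genes summed to between 4614 and 18389 CPM in RPE/choroid and between 140 and 1119 CPM in retina. Each list therefore separated the tissues in every library.

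In retina, 3 of the 5 markers were lower at the fovea than at each of the other 3 locations. PRKCA changed most, with a foveal level about 2.2 times below the perimacula and periphery. TRPM1 and CABP5 were lower by about 1.4 to 1.8 times. PCP2 and NYX passed no test between locations in retina. The plot of levels by library shows all 5 genes.

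**Figure D1:**
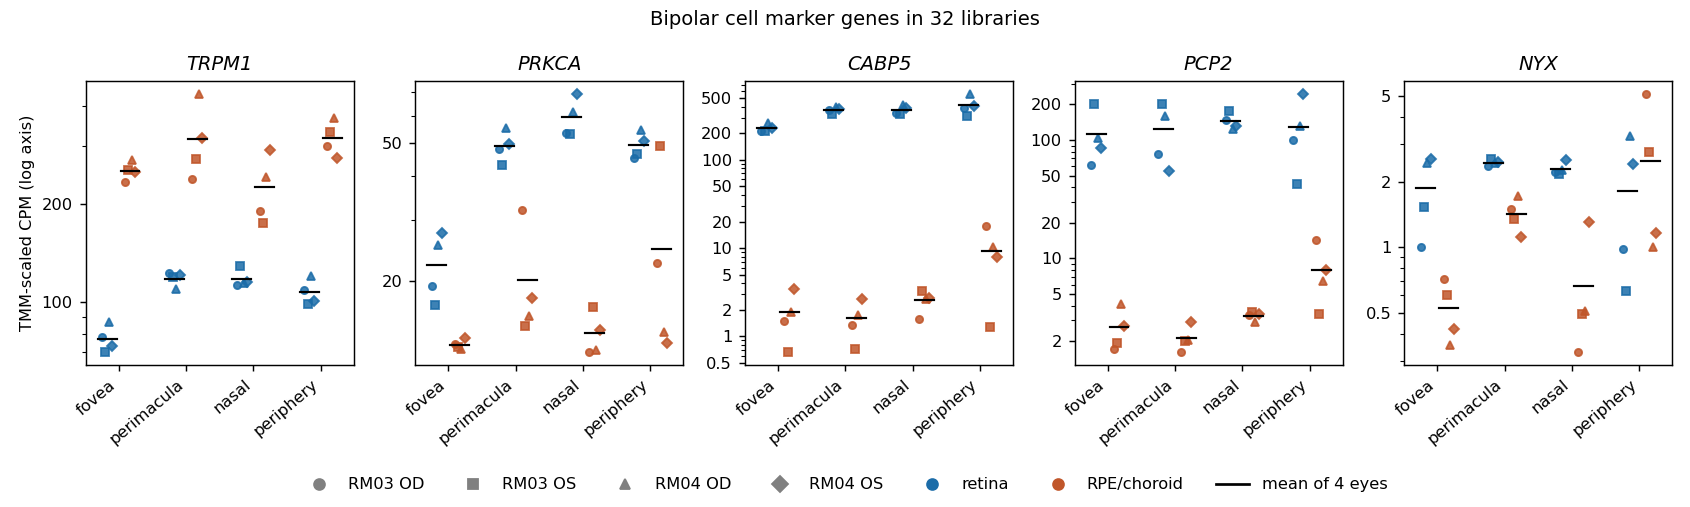
Level of each marker gene in all 32 libraries, as TMM-scaled CPM on a log axis (each panel has its own scale), by location, with retina in blue and RPE/choroid in orange. Point shapes mark the 4 eyes (OD, right; OS, left) and black lines the mean of 4 eyes. Retinal PRKCA lay between 17 and 27.4 CPM at the fovea and between 43.1 and 69.3 CPM elsewhere, and TRPM1 was the marker whose RPE/choroid points lay above its retina points at every location.

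Values per eye are given in the order right eye of RM03, left eye of RM03, right eye of RM04 and left eye of RM04. For PRKCA, the retinal level was 19.3, 17, 25.3 and 27.4 CPM at the fovea and 48.0, 43.1, 55.2 and 49.6 CPM at the perimacula. It was 53.5, 53.1, 61.6 and 69.3 CPM at the nasal location and 45.2, 46.5, 54.6 and 50.8 CPM at the periphery. The 4 foveal libraries were below the other 12, without overlap. Differences were tested with edgeR's quasi-likelihood test, which carried a term for the monkey, after Benjamini-Hochberg adjustment across all genes tested, and called at an adjusted p under 0.05. PRKCA fell by 1.10 on the log2 scale from perimacula to fovea (SE 0.091, adjusted p 1.80e-05 by edgeR). The log2 difference of fovea minus nasal was -1.39 (SE 0.078, adjusted p 2.18e-08 by edgeR), and that of fovea minus periphery was -1.11 (SE 0.091, adjusted p 7.24e-07 by edgeR). In every eye the kinase was lower at the fovea, by 0.86 to 1.64 on the log2 scale over these comparisons.

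TRPM1, the channel opened by light in ON bipolar cells, had 78.0, 70.4, 86.8 and 73.5 CPM in foveal retina. The perimacula had 122, 119, 109 and 121 CPM, the nasal location 113, 129, 115 and 115 CPM, and the periphery 109, 98.6, 120 and 101 CPM. The highest foveal library was below the lowest library of every other location. The log2 difference was -0.56 for fovea minus perimacula (SE 0.085, adjusted p 0.000572 by edgeR), -0.57 for fovea minus nasal (adjusted p 3.47e-05) and -0.42 for fovea minus periphery (adjusted p 0.000931). TRPM1 was higher still in RPE/choroid (below), and retina libraries held RPE genes. The 5 RPE genes summed to a median of 154 CPM in foveal retina. Perimacula, nasal location and periphery had 217, 324 and 998 CPM. For the sum of 6 pigment cell genes, named below, the highest retinal median was that of the fovea (46.9 CPM). Most single genes of that list went the other way against the periphery. There 4 of the 6 were called lower at the fovea and 1 higher, with a median log2 difference of -1.71. The part of RPE in the TRPM1 differences was not tested.

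CABP5, the calcium-binding protein, had 214, 211, 259 and 229 CPM in foveal retina and 364, 335, 400 and 380 CPM at the perimacula. It had 335, 333, 417 and 389 CPM at the nasal location and 390, 315, 558 and 405 CPM at the periphery. All 4 foveal values were again below the 12 others, while the other 3 locations overlapped, and the right eye of RM04 stood highest at the periphery. The log2 difference was -0.64 for fovea minus perimacula (SE 0.110, adjusted p 0.00114 by edgeR), -0.65 for fovea minus nasal (adjusted p 0.000103) and -0.80 for fovea minus periphery (adjusted p 4.61e-05).

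Against all genes, the 3 of 5 markers called between fovea and perimacula compare with 35.2% of the 15380 genes tested, of which those lower at the fovea made up 16.2%. Between fovea and nasal location 52.2% of genes were called and 27.2% were called lower at the fovea, and between fovea and periphery 67% were called and 36% lower at the fovea. The share of markers lower at the fovea was thus above the share of all genes in each comparison, in a list of 5 genes. Since the list was chosen with earlier results of these data known, this excess is a description and not a test. The median log2 difference of the 5 markers was -0.56, -0.57 and -0.42 in these comparisons, beside 0.01, -0.04 and -0.06 over all genes tested. In bulk tissue a lower level can reflect fewer bipolar cells among the other cells of the punch or less RNA per cell, and these cannot be told apart here. Markers of other retinal cells moved with location as well. All 9 rod genes were called lower at the fovea in these 3 comparisons, with a median log2 difference of -2.20 against the periphery, and all 9 ganglion cell genes were called higher, with a median of 4.06. None of the 9 rod genes and none of the 9 ganglion cell genes was at 0 in all retina libraries of a location. The part of these cells in the marker differences was not tested.

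**Figure D2:**
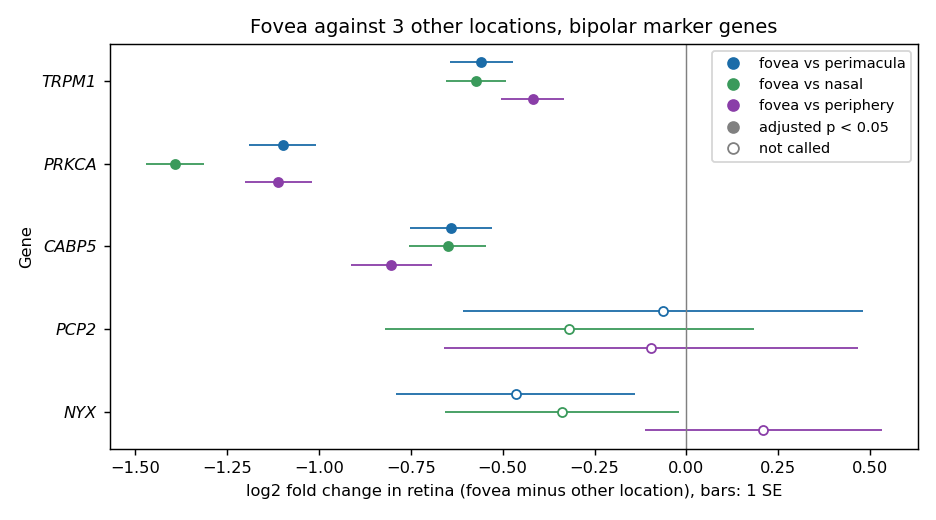
Log2 fold change in retina, fovea minus perimacula (blue), nasal location (green) or periphery (purple), for each marker gene, with bars of 1 SE. Filled points passed an adjusted p of 0.05. All 9 points of TRPM1, PRKCA and CABP5 are filled and lie between -1.39 and -0.42, while the points of PCP2 and NYX are open and carry the widest bars.

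PCP2, the Go modulator, showed no order by location in retina. Its level was 61.3, 202, 104 and 85.8 CPM at the fovea and 76.7, 203, 161 and 54.4 CPM at the perimacula. It was 147, 177, 125 and 132 CPM at the nasal location and 100.1, 42.4, 131 and 246 CPM at the periphery. The 4 eyes of a group spread by up to 5.79-fold, at the periphery, and all 4 locations overlapped. The left eye of RM03 was highest at all locations but the periphery, where it was lowest. The log2 difference of fovea minus perimacula was -0.06 with an SE of 0.54 (adjusted p 0.938 by edgeR), so a change as large as that of TRPM1 was not detectable with this spread.

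NYX, which anchors TRPM1, was the least counted of the markers. In foveal retina it had 1.00, 1.53, 2.47 and 2.55 CPM, from 49 to 154 estimated counts. Perimacula libraries were close together at 2.37, 2.57, 2.46 and 2.49 CPM, as were nasal libraries at 2.23, 2.18, 2.27 and 2.53 CPM. At the periphery it had 0.98, 0.63, 3.27 and 2.44 CPM. Both eyes of RM03 were below both eyes of RM04 at the fovea and at the periphery, the geometric mean of RM04 being 2.02 and 3.60 times that of RM03, whereas at the perimacula the ratio was 1.00. The log2 difference of fovea minus periphery was 0.21 (SE 0.32, adjusted p 0.586 by edgeR), and those against the perimacula and the nasal location were -0.46 (adjusted p 0.296) and -0.34 (adjusted p 0.400).

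Between the locations away from the fovea, edgeR called 1 difference among the retinal markers, that of PRKCA between nasal location and periphery. The order of mean levels for PRKCA was nasal (59.4 ± 7.7 CPM, SD, n = 4), periphery (49.3 ± 4.3), perimacula (49.0 ± 5.0) and fovea (22.2 ± 4.9). Of the neighbours in that order, nasal and periphery differed by 0.28 on the log2 scale (adjusted p 0.00775 by edgeR), higher in 4 of 4 eyes with ranges that overlapped, and periphery and perimacula by 0.01 (adjusted p 0.925). PRKCA was the only one of 5 markers called between nasal location and periphery, where 48.7% of all genes were called, and the call was lost without the right eye of RM03 (0.23, adjusted p 0.0880 by edgeR) and without the left eye of RM04 (0.20, adjusted p 0.0700). No marker was called between perimacula and periphery, against 50.3% of all genes, and none had an unadjusted p under 0.05 by edgeR or a call by DESeq2. That count was 2 without the right eye of RM04, namely NYX at 1.09 (adjusted p 0.0431 by edgeR) and TRPM1 at 0.24 (adjusted p 0.0308). Between perimacula and nasal location, where 1.49% of genes were called, edgeR called 0 markers. PRKCA had an unadjusted p of 0.00255 there (log2 difference -0.28, lower at the perimacula in 4 of 4 eyes, adjusted p 0.0834 by edgeR), and DESeq2 called it alone (adjusted p 0.0410).

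For TRPM1 the mean order was perimacula (118 ± 5.9 CPM, SD, n = 4), nasal (118 ± 7.4), periphery (107 ± 9.7) and fovea (77.2 ± 7.1). For CABP5 it was periphery (417 ± 102), perimacula (370 ± 28), nasal (369 ± 41) and fovea (228 ± 22). In both genes only the step down to the fovea passed the test. PCP2 ran from 145 ± 23 CPM at the nasal location to 113 ± 62 CPM at the fovea, and NYX from 2.47 ± 0.083 CPM at the perimacula to 1.83 ± 1.24 CPM at the periphery, with no neighbours called.

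Location accounted for most of the spread of log2 CPM among the 16 retina libraries for PRKCA (90.0%), TRPM1 (85.7%) and CABP5 (73.5%). It accounted for 6.87% in PCP2 and 21.2% in NYX. The monkey took a further 13.8% in CABP5, 7.58% in PRKCA, 35% in NYX and at most 0.72% in TRPM1 and PCP2. Retinal PRKCA and CABP5 were higher in both eyes of RM04 than in both eyes of RM03 at all 4 locations, PRKCA by 1.46 times at the fovea and CABP5 by 1.36 times at the periphery, while the eyes of the animals overlapped for TRPM1 at every location. With 2 animals, a difference between them has no replicate.

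As a description across the 16 retina libraries, which share animals, eyes and flow cells, log2 levels of TRPM1, PRKCA and CABP5 rose and fell together, with Pearson correlations of 0.82 to 0.87. PCP2 and NYX had correlations of 0.13 to 0.38 with those 3 genes and of 0.52 with each other. After the location means were taken out, the correlation was 0.14 for TRPM1 with PRKCA, 0.52 for TRPM1 with CABP5, 0.62 for PRKCA with CABP5 and 0.77 for CABP5 with NYX. Among 9896 genes with a mean of at least 3 on the log2 CPM scale, those most like PRKCA were ANOS1 (r = 0.991), RHPN2 (0.979) and FNDC1 (0.978). The genes most like TRPM1 were RNASE1 (0.905), ATF1 (0.897) and HMGN5 (0.897), and those most like CABP5 were TMEM130 (0.944), KLHDC8A (0.941) and TSHB (0.933). For PCP2 they were NR2F6 (0.962), SRSF1 (0.923) and WDR83 (0.920). For NYX, among 9897 genes, those most like it included KIRREL3 (0.884) and GAD2 (0.858), the glutamate decarboxylase of amacrine cells.

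Other genes of the ON signalling cascade moved in both directions. Of 10 cascade genes, all tested, 1 was called lower and 1 higher at the fovea against the perimacula, 3 lower and 2 higher against the nasal location, and 1 lower and 4 higher against the periphery. Their median log2 difference was -0.11, -0.16 and 0.16 in these comparisons. Beside these counts, 16.2%, 27.2% and 36% of all genes were called lower and 19%, 25.1% and 31% higher, in the same order. GRM6, the gene of the mGluR6 receptor, moved in the direction of TRPM1 within the shared flow cells, with 59.8, 66.5, 72.2 and 63.7 CPM at the fovea and 117, 143, 109 and 105 CPM at the nasal location, a log2 difference of -0.82 (adjusted p 0.000973 by edgeR). It differed from the perimacula by -0.49 (adjusted p 0.0351) and from the periphery by -0.28 (adjusted p 0.153). GPR179, the orphan receptor that anchors the RGS proteins, was called lower at the fovea against the nasal location alone (-0.27), as was GNB5 (-0.47), the G beta subunit that partners RGS7 and RGS11. LRIT3, a leucine-rich repeat protein needed to place TRPM1 at the dendrite, was called lower against the periphery alone (-0.32).

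Genes of the G protein itself and of its regulators included most of those higher at the fovea. GNAO1, the Go alpha subunit, had 394, 389, 437 and 459 CPM in foveal retina and 164, 141, 232 and 187 CPM at the periphery, so the locations did not overlap and the log2 difference was 1.28 (SE 0.096, adjusted p 3.98e-07 by edgeR). Against the nasal location it was 0.31 higher (adjusted p 0.0110). GNB3, a G beta subunit shared by ON bipolar cells and cones, was higher at the fovea in the 3 comparisons, by 0.50, 0.63 and 0.41 on the log2 scale. RGS7 and RGS11, the proteins that switch off Go, were 0.55 and 0.52 higher at the fovea than at the periphery and were not called in the other comparisons. GNG13, the G gamma subunit, had log2 differences of -0.15, -0.29 and -0.14 and was not called, and RGS9BP, whose 4 peripheral libraries ranged from 1.44 to 36.9 CPM, was not called either.

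**Figure D3:**
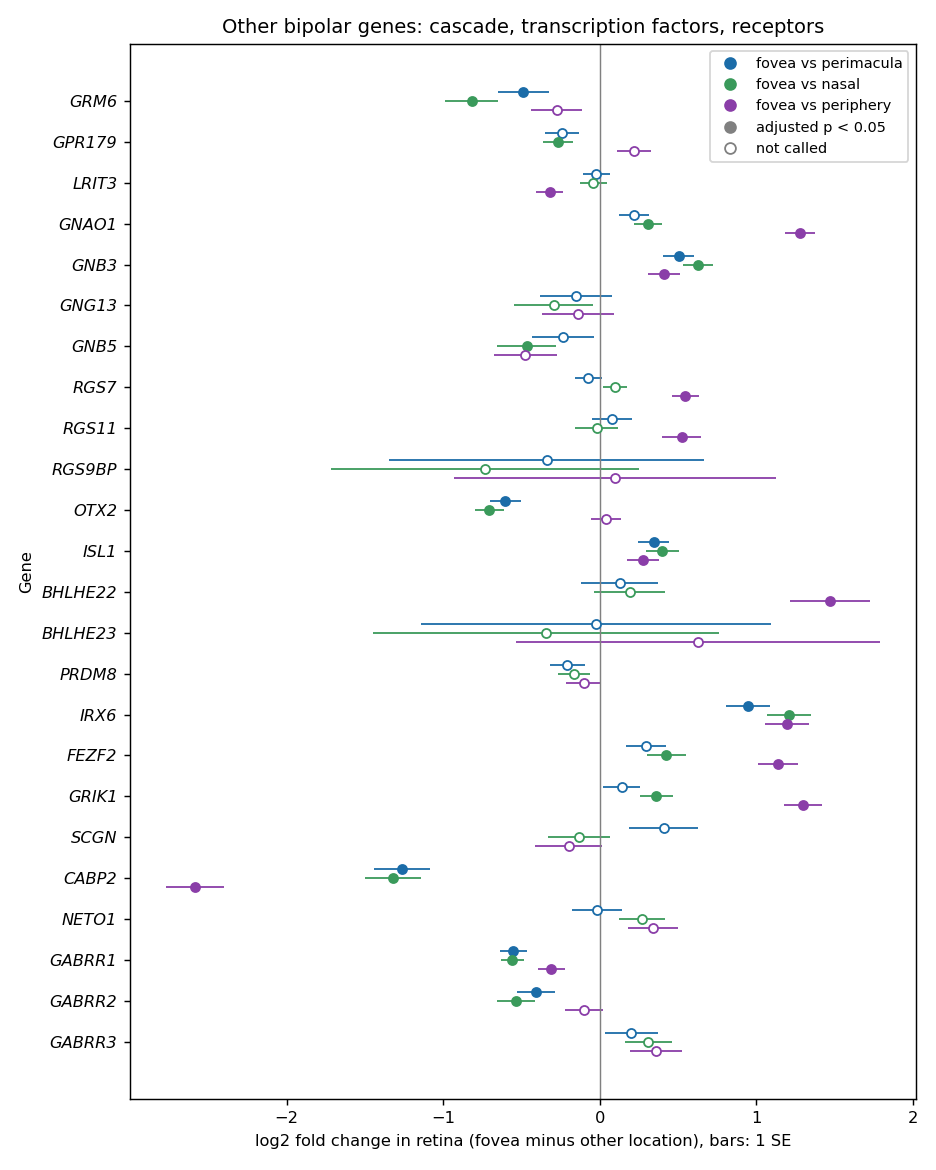
Log2 fold change in retina, fovea minus perimacula (blue), nasal location (green) or periphery (purple), for other genes of bipolar cells, from the cascade (top, GRM6 to RGS9BP), transcription factors (OTX2 to FEZF2) and receptors and calcium-binding proteins (bottom, GRIK1 to GABRR3), with bars of 1 SE and filled points for an adjusted p under 0.05. CABP2 lies farthest to the left, at -2.59 against the periphery, and BHLHE22 farthest to the right, at 1.47.

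Among transcription factors of bipolar cells, all calls against the periphery were higher at the fovea. Of 8 listed, 7 had an entry and were tested (SEBOX was not analysed here), and against the periphery 4 were called higher at the fovea and 0 lower, with a median log2 difference of 0.63. Against the perimacula 2 were called higher and 1 lower, and against the nasal location 3 higher and 1 lower. Of all genes, 31% were called higher and 36% lower at the fovea against the periphery. The shares were 19% and 16.2% against the perimacula, and 25.1% and 27.2% against the nasal location. BHLHE22, a factor of OFF cone bipolar and amacrine cells, had 3.47, 4.02, 5.50 and 6.02 CPM at the fovea and 1.44, 0.77, 2.19 and 2.94 CPM at the periphery, a log2 difference of 1.47 (adjusted p 0.000266 by edgeR). IRX6 was higher at the fovea in all 3 comparisons, with 19.3, 18.3, 18.4 and 17 CPM there and 7.25, 7.5, 10.3 and 8.31 CPM at the periphery (log2 difference 1.19, adjusted p 1.26e-05 by edgeR). It is not particular to retina, since RPE/choroid had 7.48 to 56.3 CPM. FEZF2 was 1.14 higher at the fovea than at the periphery and ISL1, a factor of ON bipolar and ganglion cells, was 0.27 higher.

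PRDM8 had the most negative difference from the periphery in the list, at -0.10, and was not called. OTX2 was called lower at the fovea against the perimacula (-0.60) and the nasal location (-0.70) but not the periphery (0.04). OTX2 is also a factor of photoreceptors and RPE, and RPE/choroid held 24.5 to 308 CPM of it. BHLHE23 was at 0 in 1 perimacular retina library, and no difference was called.

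Receptors and calcium-binding proteins were split. Of 8 listed, 7 had an entry and were tested (TACR3 was not analysed here), and against the periphery 2 were called lower and 1 higher at the fovea, with a median log2 difference of -0.10. Against the perimacula 3 were called lower and 0 higher, and against the nasal location 3 lower and 1 higher. The shares of all genes called lower and higher were 36% and 31% against the periphery. They were 16.2% and 19% against the perimacula, and 27.2% and 25.1% against the nasal location. CABP2, a calcium-binding protein of the CABP5 family, had 19.8, 20.1, 12.4 and 11.2 CPM at the fovea, 47.5, 50.3, 40.5 and 19.9 CPM in perimacular retina, rising to 124, 112, 64.1 and 91.0 CPM at the periphery. Its log2 difference was -1.26 against the perimacula (adjusted p 0.000370 by edgeR) and -2.59 against the periphery (adjusted p 2.92e-07), beyond that of any marker. GABRR1, a subunit of the GABA-C receptor at bipolar terminals, was lower at the fovea in all 3 comparisons, by 0.55, 0.56 and 0.31, and GABRR2 in the first 2 of these, by 0.41 and 0.53. GRIK1, the kainate receptor of OFF bipolar cells, went the other way, with 312, 260, 306 and 305 CPM at the fovea and 119, 106, 157 and 119 CPM at the periphery (log2 difference 1.30, adjusted p 1.92e-06 by edgeR). GABRR3 was 0.36 higher at the fovea and was not called (adjusted p 0.0746).

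RPE/choroid held little of CABP5 and PCP2 and much of TRPM1. The levels of CABP5 were 0.67 to 17.6 CPM and those of PCP2 1.63 to 14.3 CPM, and as a share of the retina of the same eye and location they came to a median of 0.70% (0.21% to 4.5%) and 2.68% (0.95% to 14.3%). PRKCA came to a median of 35.1% (20.5% to 106%) and NYX to 46.3% (14.3% to 524%). TRPM1 was higher in RPE/choroid than in retina in 4 of 4 eyes at each of the 4 locations, at 135% to 398% of the retina. It had 233, 254, 272 and 251 CPM at the fovea, 238, 275, 435 and 318 CPM in perimacular RPE/choroid, 190, 174, 242 and 293 CPM at the nasal location and 302, 332, 367 and 277 CPM at the periphery. Retina and RPE/choroid did not overlap at any location for TRPM1.

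**Figure D4:**
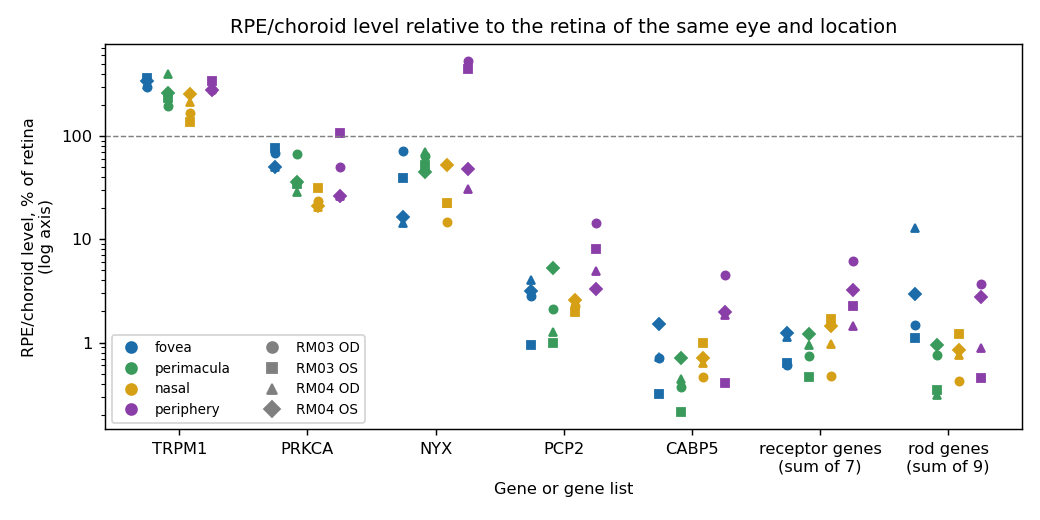
Level in RPE/choroid as a percentage of the retina of the same eye and location, on a log axis, for each marker gene, the sum of 7 receptor and calcium-binding genes of bipolar cells and the sum of 9 rod genes, with colours for locations, shapes for eyes and a dashed line at 100%. TRPM1 lies above the line in every pair, from 135% to 398%, while CABP5 reaches 4.5% and the rod genes 12.9% at most.

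The tissues were compared in a fit of all 32 libraries, where positive values are higher in retina. All 5 markers were called at the fovea and at the nasal location, and 4 of them at perimacula and periphery, beside 75.5%, 76.2%, 76.7% and 75.7% of all genes at fovea, nasal location, perimacula and periphery. Those higher in retina numbered 4 of 5 at the fovea and the nasal location and 3 of 5 at the perimacula and the periphery, beside 37%, 37.6%, 37.7% and 37.8% of all genes. The median log2 difference of the markers in the same order was 1.80, 2.08, 1.30 and 1.01, and that of all genes lay between -0.01 and 0.02. CABP5 was higher in retina on the log2 scale by 6.98 at the fovea, 7.89 at the perimacula, 7.17 in nasal punches and 5.45 at the periphery. PCP2 followed with 5.46, 5.87, 5.47 and 3.98.

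PRKCA was higher in retina by a smaller margin, 0.78 at the fovea (adjusted p 0.0153 by edgeR), 1.30 at the perimacula, 2.08 in nasal punches and 1.01 at the periphery, where the tissues overlapped in range. TRPM1 was called in the opposite direction, at -1.71, -1.41, -0.91 and -1.58 at fovea, perimacula, nasal location and periphery (adjusted p at most 6.86e-07 by edgeR). NYX was called higher in retina at the fovea (1.80, adjusted p 0.00233 by edgeR) and at the nasal location (1.83, adjusted p 0.00175). At the perimacula its difference was 0.79 (adjusted p 0.13) and at the periphery -0.56 (adjusted p 0.300).

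Sums of rod, receptor, cone and ganglion cell genes were below their retinal sums in every RPE/choroid library. The 9 rod genes summed to 0.31% to 12.9% of the retina of the same eye and location. The 7 receptor genes came to 0.46% to 6.19%. The 5 cone genes came to 2.96% to 40% and the 9 ganglion cell genes to 2.88% to 38.8%. None of the 9 rod genes was at 0. Of the 5 cone genes, 1 was called higher in RPE/choroid at each location and 4 in retina. The lowest cone log2 difference was -1.96 at the fovea, -1.74 at the perimacula, -2.85 in nasal punches and -1.58 at the periphery. Of the 9 ganglion cell genes, 1 was called higher in RPE/choroid in nasal punches (lowest log2 difference -1.27), and 8 in retina. Peripheral punches also had 1 (lowest -2.71), with 7 higher in retina. The part of such genes in the sums was not tested. Among the 16 RPE/choroid libraries, which share animals, eyes and flow cells, log2 TRPM1 had a correlation of 0.08 with the rod list, -0.20 with the RPE list and 0.67 with a list of 6 pigment cell genes (TYR, DCT, PMEL, OCA2, SLC45A2 and MITF) that was chosen after values were seen. The pigment genes, none at 0 in all libraries of a location, summed to 3335 to 8879 CPM in RPE/choroid and to 18.7 to 61.9 CPM in retina. The part of pigment cells in the TRPM1 level was not tested.

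By location in RPE/choroid, edgeR called 0 markers between fovea and perimacula, where 0.0447% of all genes were called, and 0 between fovea and nasal location, where 0.361% were. NYX was the 1 marker with an unadjusted p under 0.05 in the first of these (0.00284, log2 difference -1.55, lower at the fovea in 4 of 4 eyes without overlap, adjusted p 0.210 by edgeR), and DESeq2 called it alone (adjusted p 0.0297). None had an unadjusted p under 0.05 or a DESeq2 call between fovea and nasal location. Between fovea and periphery 3 of 5 markers were called, all lower at the fovea, beside 44.1% of all genes called and 22.9% called lower at the fovea. The median log2 difference of the markers was -1.71, beside -0.06 over all genes.

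CABP5 had 1.5, 0.67, 1.90 and 3.45 CPM in foveal RPE/choroid and 17.6, 1.29, 10.4 and 7.96 CPM at the periphery, and the groups overlapped through the left eye of RM03. The log2 difference was -2.49 (SE 0.68, adjusted p 0.0125 by edgeR), it was -1.54 without the right eye of RM03, and the call was lost without the right eye of RM04 (-2.56, adjusted p 0.0658). PCP2 had 1.72, 1.92, 4.14 and 2.68 CPM at the fovea and 14.3, 3.41, 6.5 and 8.01 CPM at the periphery, with the left eye of RM03 again inside the foveal range. Its log2 difference was -1.71 (SE 0.42, adjusted p 0.00747 by edgeR), falling to -1.01 without the right eye of RM03, and the call was lost without the left eye of RM04 (-1.74, adjusted p 0.0537). NYX had 0.72, 0.60, 0.35 and 0.42 CPM at the fovea and 5.13, 2.75, 1.00 and 1.16 CPM at the periphery without overlap, a log2 difference of -2.13 (SE 0.41, adjusted p 0.00174 by edgeR).

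TRPM1 differed by -0.35 between fovea and periphery of RPE/choroid and was not called (adjusted p 0.0636 by edgeR). With the eye as a replicate block, which pairs the locations of an eye, the value was -0.34 and passed the threshold (adjusted p 0.0419), as it did in the fit of only the compared groups (-0.35, adjusted p 0.0311 by edgeR) and with 2 lanes per library (-0.38, adjusted p 0.0494). PRKCA differed by -0.79 (adjusted p 0.0769), with 22.5 and 49.1 CPM at the periphery in RM03 and 14.2 and 13.2 CPM in RM04, beside 12.6 to 13.6 CPM at the fovea. Retinal genes were present in the same libraries at levels that varied. The rod genes summed to 924, 126, 213 and 691 CPM in peripheral RPE/choroid and to 59.3, 51.1, 539 and 133 CPM at the fovea, with 0 of 9 called between these locations and a median log2 difference of -2.03. Other retinal lists were split. The median was -1.96 for the 7 receptor genes of bipolar cells, with 2 called lower at the fovea and 0 higher. It was -2.23 for the 5 amacrine cell genes (3 lower, 2 higher) and -1.455 for the 3 Müller glia genes (2 lower, 0 higher). Medians of the opposite sign were 1.09 for the 5 cone genes (0 called) and 1.52 for the 8 ganglion cell genes tested (1 called higher at the fovea). Some genes of these lists were higher in RPE/choroid than in retina. At the fovea 1 of the 3 Müller glia genes was called so (log2 difference -3.73), with 2 higher in retina. At the periphery 1 of the 5 amacrine cell genes was (-0.69), with 4 higher in retina. Across the 16 RPE/choroid libraries, log2 CABP5 and PCP2 had correlations of 0.77 and 0.84 with the rod list, and NYX one of 0.26. The peripheral library from the right eye of RM03 had the highest rod sum of the 16 and the highest CABP5, PCP2 and NYX. The part of retinal material in these differences was not tested.

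The change between locations was compared between the tissues as an interaction, retina minus RPE/choroid. For fovea against nasal location 2 of 5 markers were called, beside 23.5% of all genes. TRPM1 fell towards the fovea in retina (-0.57) and had a difference of 0.19 in RPE/choroid that was not called, an interaction of -0.80 (SE 0.19, adjusted p 0.00251 by edgeR). PRKCA had -1.39 and -0.09, an interaction of -1.31 (SE 0.40, adjusted p 0.0171). The PRKCA call was lost without the right eye of RM03 (adjusted p 0.0897 by edgeR), the right eye of RM04 (0.0823) and the left eye of RM04 (0.0780), and that of TRPM1 without the left eye of RM03 (-0.56, adjusted p 0.0903).

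For fovea against periphery 2 of 5 were called, beside 43.5% of all genes. CABP5 was lower at the fovea in both tissues, more so in RPE/choroid, with an interaction of 1.53 (SE 0.60, adjusted p 0.0398 by edgeR). That call was lost without the right eye of RM03 (0.82, adjusted p 0.332 by edgeR), whose peripheral RPE/choroid value was the highest, and without the right eye of RM04 (1.67, adjusted p 0.135). NYX had 0.21 in retina and -2.13 in RPE/choroid, an interaction of 2.36 (SE 0.69, adjusted p 0.00684 by edgeR), and missed the threshold without the left eye of RM03 (2.18, adjusted p 0.0555). TRPM1 (-0.13) and PRKCA (-0.24) had small interactions that were not called, and PCP2 had 1.48 (adjusted p 0.0731).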

How the data were processed

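Lanes were sequenced as poly-A-selected, paired-end libraries. The authors quantified each of 136 lanes against Mmul_8.0.1 with Salmon 0.13 (the version in the submitters' processing notes) and deposited length-scaled values from tximport, which are estimated counts and not TPM, as lane totals of 7933344 to 39445657 show. They assigned symbols by orthology support. Here 10 repeated entries with the same values were dropped, the lanes belonging to each library were added up and rounded to whole numbers, and 32 libraries were tested with edgeR 4.0.16 (quasi-likelihood, TMM, filterByExpr at a minimum count of 10, R 4.3.3, limma 3.58.1), taking the animal as covariate like the study's methods, with Benjamini-Hochberg adjustment over all genes. Fovea, perimacula and periphery of a tissue were fitted together, comparisons with the nasal location in a fit with it, and tissues in a fit of all libraries. Scripts were tested on simulated data. Levels are TMM-scaled CPM, and correlations used log2 CPM at a prior count of 2. Replicates are the 4 eyes, and the numbers pair libraries of the same eye. Deviations from the location means correlated by a mean of 0.56 in retina and 0.39 in RPE/choroid between libraries of an eye, and by 0.55 and 0.41 between fellow eyes. No 2 libraries of a group agreed within counting noise. The depth makes counting error small beside the spread between eyes, except where counts are low, for NYX and for CABP5 and PCP2 in RPE/choroid.

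The members and gene lists were chosen with earlier results of these data known. Genes outside the members are named where they belong to the cascade, or by the 2 largest differences in each direction between foveal and peripheral retina of a list, or when called. For GLUL, with 2 entries, no value was used, leaving 3 of 4 Müller glia genes. Alternatives were DESeq2 1.42.0, RLE normalization, no filter on low counts or one of at least 10 in every library, a block for the eye, a fit lacking the covariate, only the compared groups, 2 lanes per library, nasal libraries included, plain CPM, and leaving out each eye. Genome sequence and promoters were not used here, and some results are not reported here. Python 3.11.15 was used with numpy 2.4.6, pandas 2.3.3 and matplotlib 3.10.9.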

Additional observations from a re-analysis of the deposited data

Results flagged for a closer look

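Among 40 groups of 4 libraries, 1 had a library far from the rest. TRPM1 in nasal retina had 129 CPM in the left eye of RM03, and the other 3 eyes had between 113 and 115 CPM. Chance gives such a library in about 1 of 20 groups.

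For 4 genes the change between locations differed between the tissues in the interaction fit. The interaction, retina minus RPE/choroid, was -0.80 for TRPM1 and -1.31 for PRKCA in fovea against nasal location, and 1.53 for CABP5 and 2.36 for NYX in fovea against periphery. Each of these calls was lost on leaving out at least 1 of the 4 eyes.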

How the results depend on the processing

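Retinal calls for TRPM1, PRKCA and CABP5 at the fovea against each other location held under every alternative run, with 3 of 5 markers called each time. No difference of a called marker changed sign. RLE in place of TMM normalization moved the log2 differences of the markers by at most 0.050. Leaving out each eye in turn gave 0 to 2 markers between perimacula and periphery (0 with all eyes), 0 to 2 between nasal location and periphery (1 with all eyes), and 1 to 1 for the tissue difference of fovea against nasal location (2 with all eyes). For the tissue difference of fovea against periphery it gave 1 to 3 (2 with all eyes). DESeq2 called 1 marker between perimacula and nasal retina and 1 between fovea and perimacula of RPE/choroid, where fitting only the compared groups also gave 1, against 0. Without the monkey as a covariate the count was 0 between nasal and peripheral retina and 1 for the tissue difference of fovea against periphery, which was 1 also in the fit of only the compared groups. The causes of these shifts were not tested. In RPE/choroid between fovea and periphery 2 to 4 markers were called, and TRPM1 gained its call with the eye as a replicate block (-0.34), with only the compared groups (adjusted p 0.0311) and with 2 lanes per library (0.0494). The block changed no other marker's call in the comparisons run. PRKCA gained a call there by DESeq2 (adjusted p 0.0361) and with nasal libraries included (0.0457). Between the tissues NYX gained a call at the perimacula with only the compared groups (adjusted p 0.00442) and at the periphery without the right eye of RM04 (-1.27, adjusted p 0.0459), for 5 of 5 markers against 4.

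Over all genes, counts moved by over 1.5 times in 5 comparisons. Between fovea and perimacula of retina 5416 genes were called and 3225 without the right eye of RM03. Between perimacula and nasal retina it was 231, with 14 to 785. In RPE/choroid it was 7, with 0 to 357, between fovea and perimacula and 57, with 0 to 490, between fovea and nasal location. For the tissue difference of fovea against nasal location 3853 were called and 2510 without the left eye of RM04. Depth limits NYX, with as few as 14 estimated counts in a library.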
